A study of Mus musculus with 38 samples.

Results

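The testes of B6-ChrXMSM and MSM males at 5 days postpartum (dpp) were compared over all chromosomes. Both strains carry the MSM X chromosome, on B6 autosomes in B6-ChrXMSM and on MSM autosomes in MSM, so transcripts of the same X chromosome, apart from its ends, were read in different genetic backgrounds. The members were chosen by the strain and age of their labels and are 6 of the 38 arrays of the series, with 3 B6-ChrXMSM and 3 MSM males. The study used arrays of whole-testis RNA to follow prepubertal gene expression in strains whose X chromosome, or its distal part, came from another mouse subspecies.

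B6-ChrXMSM is an X chromosome substitution strain in which the X chromosome of MSM was placed in C57BL/6J (B6), and its males are sterile. The substitution does not reach the ends of the chromosome, and genes near them can be of B6 origin in B6-ChrXMSM. MSM is an inbred strain from Japanese wild mice of Mus musculus molossinus, whereas B6 is mainly of M. m. domesticus origin. No treatment was given, and each array was 1 biological replicate labelled testis. The substituted chromosome comes from 1 strain, and MSM differs from B6-ChrXMSM in every autosome and may differ in the Y chromosome and mitochondria, so no single autosomal locus can be read from this comparison. Levels of 3 B6 males at 5 dpp, which share the B6 autosomes but carry the B6 X chromosome, are given beside them, and 3 B6-ChrXMSM and 3 MSM males at 7 dpp form the later pair.

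The seminiferous tubules of the mouse at this age hold spermatogonia and Sertoli cells, and meiosis has not begun. Spermatogonia are the mitotic germ cells. Their undifferentiated members keep the stem cell pool, and retinoic acid drives the others towards meiosis. Many genes of spermatogonia lie on the X chromosome, which is present in 1 copy in males, and their transcription depends on factors encoded largely on the autosomes.

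Gene expression differed widely between the strains. Values are log2 signals, and a probe set is the group of array probes that reads 1 transcript. A probe set was tested when its mean in at least 1 of the strains exceeded log2 of 10. It was called higher or lower in B6-ChrXMSM at a Benjamini-Hochberg adjusted p under 0.05 (limma) with a fold change of at least 1.5. Thresholds are linear, and 1.5-fold is 0.585 in log2. Fold changes given for genes, probe sets and lists are log2 values, B6-ChrXMSM minus MSM. The same holds for the amounts by which a gene fell or was higher. Of 17444 probe sets tested, 5454 (31.3%) were called, 2129 higher (12.2%) and 3325 lower (19.1%) in B6-ChrXMSM testes. Correlations over all probe sets lay between 0.994 and 0.996 within B6-ChrXMSM and between 0.994 and 0.997 within MSM, and between 0.963 and 0.968 across these strains. They lay between 0.992 and 0.995 for B6-ChrXMSM with B6 and between 0.967 and 0.970 for MSM with B6. Medians over all probe sets of these 9 arrays lay between 2.66 and 2.70. Over the probe sets placed on a chromosome, medians were 3.15, 3.19 and 3.15 in B6-ChrXMSM and 3.24, 3.24 and 3.23 in MSM. The B6 males had 3.18, 3.20 and 3.17. With these medians subtracted, 47.5% of the calls were higher in B6-ChrXMSM, against 39% without. Precision was limited by having 3 arrays in a group.

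On the X chromosome 99 of 488 tested probe sets (20.3%) were called, 28 higher (5.74%) and 71 lower (14.5%) in B6-ChrXMSM. On the autosomes, 5352 of 16949 (31.6%) were called, 2101 higher (12.4%) and 3251 lower (19.2%). The share called ran from 28.4% on chromosome 13 to 34.4% on chromosome 7, and that of the X chromosome lay below all 19 autosomes. Without the 67 probe sets of genes within 10 Mb of either end, 26 of 421 X-linked probe sets were higher and 56 lower. The difference between the X chromosome and the autosomes was not tested, because probe sets are not replicates. X-linked probes met the MSM sequence in both strains, apart from the chromosome ends. Autosomal probes met B6 sequence in B6-ChrXMSM and MSM sequence in MSM. Probe sets listed as polymorphic were left out on the X chromosome, but for most autosomes no such list was at hand. The part of sequence differences under the probes in the shares and sizes compared here was not tested. The median log2 fold change was 0.00 on the X chromosome and -0.10 on the autosomes. None of the X-linked calls reached 16-fold, against 30 on the autosomes, 24 of them higher and 6 lower in B6-ChrXMSM. Among probe sets whose higher strain mean lay between log2 of 100 and log2 of 1000, calls were made for 12.6% of 135 X-linked and 22.5% of 4331 autosomal ones.

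**Figure D1:**
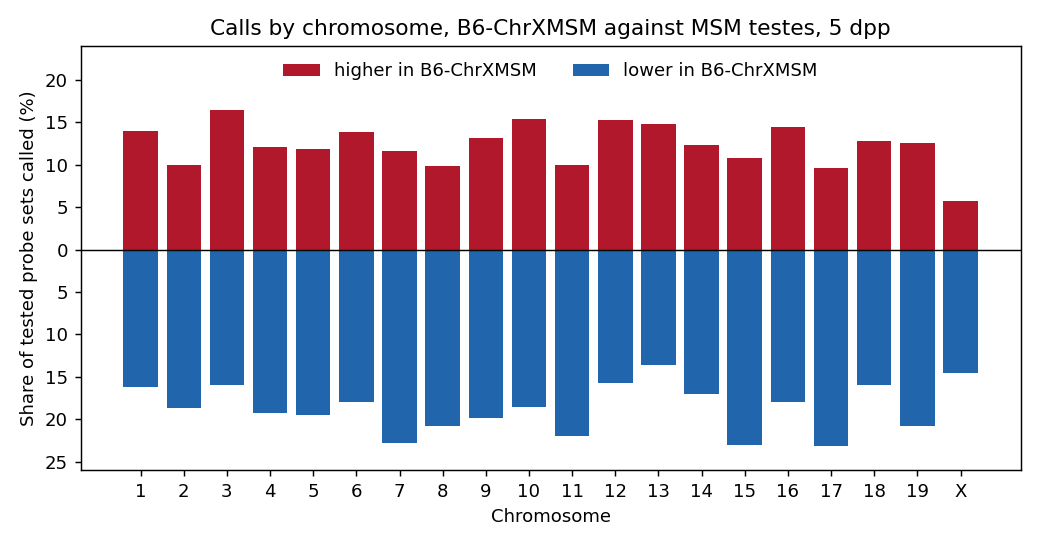
Share of tested probe sets called higher (red, upward) or lower (blue, downward) in B6-ChrXMSM than in MSM testes at 5 dpp, in percent of those tested on each chromosome. Of the 20 chromosomes shown, X had the smallest share of higher calls, at 5.74%, and its share of lower calls, 14.5%, lay above that of chromosome 13 alone. Probe sets listed as polymorphic were left out on X, but for most autosomes no such list was at hand.

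Genes of spermatogonia led the X-linked transcripts that were lower in B6-ChrXMSM. Tex11, which encodes a protein of meiotic crossing over, read 1.94, 3.04 and 2.25 in the B6-ChrXMSM testes, against 5.98, 5.45 and 5.94 in the MSM testes. Every B6-ChrXMSM male lay below every MSM male, and the fold change of -3.38 (standard error 0.26, adjusted p = 1.3e-05) was the most negative of the X chromosome, by less than its standard error from those of Sox3 and Tktl1. All B6-ChrXMSM values of these 3 genes lay under the expression filter, so the sizes rest on a weak signal. The B6 mean was 4.42 ± 0.10 (SD, n = 3). Sox3, which encodes a transcription factor of early spermatogonia, read 2.40, 2.95 and 2.85 in B6-ChrXMSM and 6.22, 5.67 and 6.38 in MSM. The groups lay far apart, by -3.35 (standard error 0.20, adjusted p = 3.45e-06), and the B6 mean was 4.26 ± 0.19 (SD, n = 3).

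Nxf2, whose family exports RNA from the nucleus, read 2.80, 4.13 and 3.61 in B6-ChrXMSM and 6.62, 6.16 and 6.65 in MSM. Its fold change was -2.96 (standard error 0.30, adjusted p = 5.1e-05), with a B6 mean of 5.76 ± 0.09 (SD, n = 3). Taf7l, the germ cell paralog of a subunit of the general transcription factor TFIID, read 2.64, 4.17 and 3.83 in B6-ChrXMSM and 6.06, 5.74 and 6.08 in MSM, a fold change of -2.41 (standard error 0.33, adjusted p = 0.00030). Taf9b, another gene of the TFIID family, fell by 1.65 (standard error 0.21, adjusted p = 0.00020). In all 3 genes the second B6-ChrXMSM male was the highest of its strain and the first the lowest, and the strains did not overlap.

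The transketolase-like gene Tktl1 was lower by both of its probe sets, with fold changes of -3.33 and -2.91. Scml2, which encodes a Polycomb protein of the germline and lies within 10 Mb of the distal end, read 4.91 ± 0.55 in B6-ChrXMSM and 7.19 ± 0.12 in MSM (SD, n = 3 each), and its other probe set fell by 0.79. The other genes named by size were Dcaf8l with -2.77, the MAP kinase phosphatase gene Dusp9 with -2.31, Mageb16 with -2.09, Map7d2 with -1.76 and Fmr1nb with -1.59. Dcaf8l stood apart in its B6 level. Its mean was 1.92 ± 0.63 in B6-ChrXMSM, 4.69 ± 0.31 in MSM and 2.38 ± 0.17 in B6 (SD, n = 3 each). The related gene Nxf3 did not pass the expression filter in either strain.

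Counted with 1 probe set per gene, 10 of the 17 tested members of a list of X-linked germ cell genes were lower and 1 was higher, against 20% lower and 8.53% higher over all 10414 genes tested. The list median was -1.36, against -0.13 over all genes. Besides the genes above, the lower ones were Tex13b with -1.51, the tumour rejection antigen gene Trap1a with -1.36 and the homeobox gene Rhox13 with -0.82. The higher one was Zfx, a zinc finger transcription factor gene, with 3.36 ± 0.37 in B6-ChrXMSM and 2.70 ± 0.03 in MSM (SD, n = 3 each, adjusted p = 0.0067). Its call was lost when all 18 arrays of 5 dpp entered 1 fit (adjusted p = 0.071), and it did not pass the filter without the first B6-ChrXMSM male. The 6 members not called included Nr0b1, with a fold change of 0.23 (adjusted p = 0.15).

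X-linked transcripts higher in B6-ChrXMSM were fewer and of smaller size. Mid1, which encodes a ubiquitin ligase of microtubules, read 6.34, 6.71 and 6.75 in B6-ChrXMSM and 5.14, 4.94 and 4.46 in MSM, a fold change of 1.75 (standard error 0.18, adjusted p = 5.5e-05). The strains did not overlap. The 3 B6 males read 7.41, 3.61 and 6.96 and spanned both groups. Mid1 lies within 10 Mb of the distal end, and whether its copy in B6-ChrXMSM is of MSM origin was not tested. Pak3, a kinase gene, was higher by all 4 of its probe sets, with fold changes between 1.07 and 1.24, and the most changed one read 7.25, 6.99 and 6.90 in B6-ChrXMSM against 5.92, 5.65 and 5.86 in MSM.

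In several of these genes the probe sets disagreed. Xiap, an inhibitor of caspases, read 6.08, 5.88 and 5.98 in B6-ChrXMSM and 4.15, 4.17 and 3.84 in MSM by 1 probe set (1.93, adjusted p = 2.4e-06), whereas the other gave 7.30 in B6-ChrXMSM and 7.23 in MSM, a difference of 0.08 (adjusted p = 0.43). Smc1a, a cohesin subunit gene, was higher by 2 probe sets, at 1.42 and 1.30, and the other gave 0.05 (adjusted p = 0.60). The ubiquitin ligase gene Huwe1 was higher by 1 probe set (1.42) and lower by another (-0.84), which read 7.36 in B6-ChrXMSM and 8.20 in MSM. It was the only X-linked gene called in both directions. Of the 6 probe sets of Kdm5c, a histone demethylase gene, all gave positive fold changes, between 0.38 and 1.52, and 2 were called. The one with 1.52 read 3.87, 3.61 and 3.02 in B6-ChrXMSM and did not pass the filter without the first male. The Kdm5c probe set of strongest signal gave 0.50, without a call. Septin6 was higher by 3 of 6 probe sets. Hs6st2, a heparan sulfate sulfotransferase gene, the sodium/proton exchanger gene Slc9a7, the ubiquitin ligase gene Pja1, Ammecr1 and Nhsl2 had fold changes of 1.08, 1.05, 0.89, 0.86 and 1.01. The other probe sets of Hs6st2 and Nhsl2 gave 0.20 and 0.01, and 3 others of Pja1 lay between -0.26 and 0.05, none of them called. The call of Nhsl2 was lost with all 18 arrays of 5 dpp in 1 fit (adjusted p = 0.063), and it did not pass the filter without the first B6-ChrXMSM male. B6 means were compared by the probe set of largest change. They lay nearer to B6-ChrXMSM than to MSM in Xiap (6.63), Pak3 (6.81), Smc1a, Huwe1, Kdm5c, Slc9a7, Pja1 and Ammecr1. In Septin6, Hs6st2 and Nhsl2 they lay nearer to MSM.

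**Figure D2:**
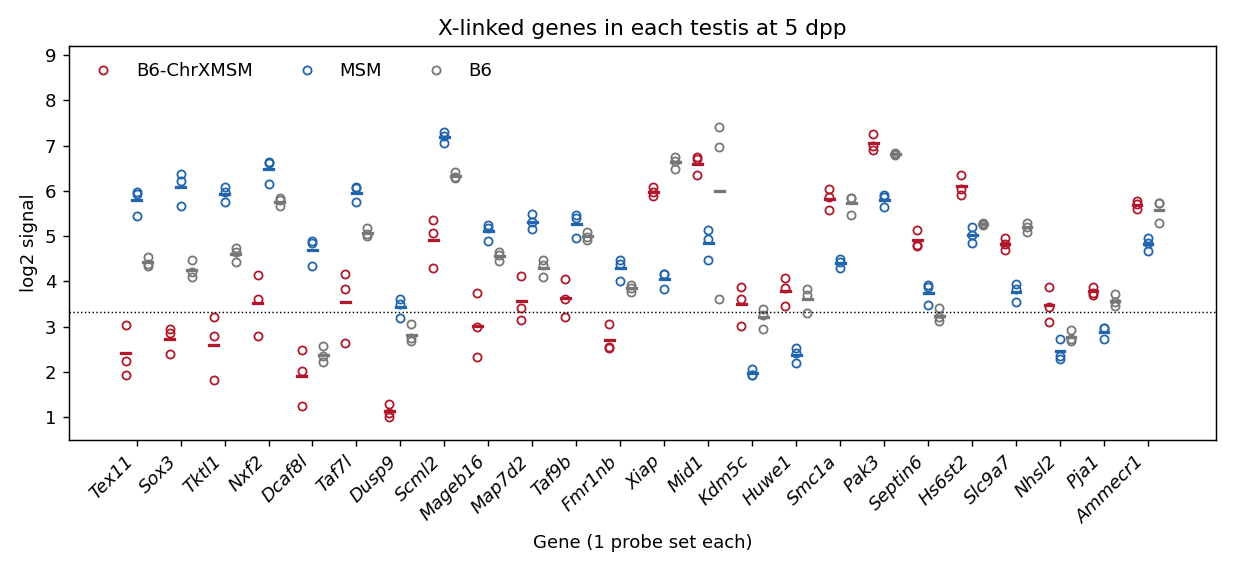
Log2 signals of 24 X-linked genes in each male at 5 dpp (open circles; bars are means of 3 males) in B6-ChrXMSM (red), MSM (blue) and B6 (grey), the 12 lower genes at the left and the 12 higher ones at the right. The dotted line is the expression filter at log2 of 10, and B6-ChrXMSM and MSM males do not overlap in any of the 24 genes, as the choice of genes required.

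Promoters of these genes were read because nearly all of these genes have the same X-linked sequence in both strains. The table of promoters held 57 of the 65 genes that were only lower and 17 of the 20 that were only higher. CACGTG, the E-box read by factors of the MYC and MAX family, and GCGGGAA, a site of E2F factors, were searched on both strands of the 300 bases from 250 before to 50 after each start. CACGTG was found in 9 of the 57 lower genes (15.8%), 3 of the 17 higher genes (17.6%) and 1035 of the 8459 tested genes with a promoter (12.2%), and in 7.15% of all 32851 promoters. GCGGGAA was found in 7 lower genes (12.3%), 2 higher genes (11.8%), 872 of all tested genes (10.3%) and 4.6% of all promoters. Those of Nxf2, Taf7l, Taf9b and Pak3 are shown because they hold the E-box among the X-linked genes named by size, with CACGTG in capitals. They are RefSeq sequences of GRCm38.p6, the B6 reference, so the letters of the MSM X chromosome may differ. Each is written 5′ to 3′ along its gene.
Nxf2 (chrX:134964705-134965004, minus strand): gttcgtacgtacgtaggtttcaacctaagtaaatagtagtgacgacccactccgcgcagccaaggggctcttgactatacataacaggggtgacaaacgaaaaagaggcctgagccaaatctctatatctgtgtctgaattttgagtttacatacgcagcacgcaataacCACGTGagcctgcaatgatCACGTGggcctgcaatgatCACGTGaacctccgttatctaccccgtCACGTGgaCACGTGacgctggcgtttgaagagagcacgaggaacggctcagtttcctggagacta
Taf7l (chrX:134476441-134476740, minus strand): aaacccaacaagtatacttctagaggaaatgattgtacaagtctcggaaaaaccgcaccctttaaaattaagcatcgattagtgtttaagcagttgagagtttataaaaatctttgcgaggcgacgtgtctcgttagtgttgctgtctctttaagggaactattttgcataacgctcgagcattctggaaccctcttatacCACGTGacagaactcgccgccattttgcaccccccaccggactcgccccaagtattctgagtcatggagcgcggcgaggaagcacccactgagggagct
Taf9b (chrX:106221109-106221408, minus strand): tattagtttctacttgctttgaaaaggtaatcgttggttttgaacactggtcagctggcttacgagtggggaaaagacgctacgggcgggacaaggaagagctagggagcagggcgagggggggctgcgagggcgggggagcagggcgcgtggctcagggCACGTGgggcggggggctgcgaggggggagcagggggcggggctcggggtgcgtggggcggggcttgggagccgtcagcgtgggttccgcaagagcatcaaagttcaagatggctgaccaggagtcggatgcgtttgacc
Pak3 (chrX:143518341-143518640, plus strand): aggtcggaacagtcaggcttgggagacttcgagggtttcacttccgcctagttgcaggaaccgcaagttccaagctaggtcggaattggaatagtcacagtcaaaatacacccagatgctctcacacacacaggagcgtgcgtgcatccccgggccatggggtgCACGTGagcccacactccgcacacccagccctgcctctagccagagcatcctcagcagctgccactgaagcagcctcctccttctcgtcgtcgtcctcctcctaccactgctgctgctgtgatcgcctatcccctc
This Nxf2 promoter held 5 copies of CACGTG, which 5 of the 32851 promoters did, and each of the other 3 held 1 copy. Further promoters of Nxf2, Taf9b and Pak3, not shown, held no CACGTG. A gene was counted when any of its promoters matched. Pak3 was higher and the other 3 genes were lower in B6-ChrXMSM. A match describes the letters alone, and binding was not measured.

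Genes of germ cells and the piRNA pathway were lower in B6-ChrXMSM with few exceptions. The spermatogonia lists that follow also hold X-linked genes counted above, such as Sox3 and Rhox13. Of 24 tested members of the germ cell and piRNA pathway list, 22 were lower, none was higher and the median was -2.12. Ddx4, the germ cell RNA helicase gene, read 4.83, 6.21 and 5.81 in B6-ChrXMSM and 7.62, 7.44 and 7.67 in MSM (-1.96, standard error 0.29, adjusted p = 0.00047). Dazl, which encodes an RNA-binding protein of germ cells, read 6.05, 7.25 and 6.86 in B6-ChrXMSM and 8.72, 8.49 and 8.64 in MSM (-1.90, adjusted p = 0.00026). The strains did not overlap in either gene, and the B6 means of 7.03 and 8.06 lay between them.

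The piRNA pathway silences transposons in germ cells. Its Argonaute gene Piwil2 fell by 2.12, the helicase gene Mov10l1 by 2.86, the Tudor domain gene Tdrd9 by 2.30 and Mael, which is needed for transposon silencing, by 2.94. Gtsf1, a partner of PIWI proteins, was lower by both probe sets (-2.45 and -2.60). The largest difference was that of Tex19.2, which read 4.57, 4.87 and 4.56 in B6-ChrXMSM and 8.86, 8.53 and 8.62 in MSM (-4.01, standard error 0.12, adjusted p = 9.9e-08). Its B6 mean of 5.59 ± 0.05 (SD, n = 3) lay nearer to B6-ChrXMSM than to MSM. The 2 members not called were Tdrd7, with -0.16 (adjusted p = 0.22), and Mybl1, with 0.28 (adjusted p = 0.036).

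Markers of undifferentiated spermatogonia were lower in 13 of 15 cases, with none higher and a median of -1.502. Lin28a, which encodes an RNA-binding protein of stem cells, read 1.76, 0.92 and 1.45 in B6-ChrXMSM and 4.97, 4.47 and 4.90 in MSM, a fold change of -3.40 (adjusted p = 4.2e-06). All B6-ChrXMSM males lay under the expression filter, and so did B6, with a mean of 2.22 ± 0.31 (SD, n = 3). Zbtb16, the PLZF transcription factor gene, fell by 2.30, the GDNF receptor gene Ret by 2.00 and its coreceptor gene Gfra1 by 1.24. Id4, a marker of stem cells, fell by 1.42. Neurog3 read 1.71 ± 0.12 in B6-ChrXMSM, 3.87 ± 0.13 in MSM and 1.91 ± 0.12 in B6 (SD, n = 3 each).

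Among genes of differentiating spermatogonia, 7 of 14 were lower and 2 were higher, with a median of -0.49. Kit, the receptor gene that marks differentiation, fell by 1.76 (adjusted p = 1.1e-05) and the transcription factor gene Sohlh1 by 2.46. The DNA methyltransferase gene Dnmt3b fell by 0.83. The higher ones were Kitl, which encodes the ligand of Kit and is made by Sertoli cells, with 0.81, and the cyclin gene Ccnd2 with 0.74.

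Genes of the meiotic prophase were lower in 14 of 19 cases and higher in 1, with a median of -1.91. The synaptonemal complex genes Sycp1, Sycp2 and Sycp3 fell by 1.77, 2.30 and 1.70, and Tex12, a gene of the same complex, by 2.90. Smc1b, a cohesin gene of meiosis, read 2.60, 3.75 and 3.50 in B6-ChrXMSM and 5.34, 5.14 and 5.43 in MSM (-2.02, adjusted p = 0.00018). Tex15, which acts in meiotic repair, read 4.76, 5.69 and 5.39 in B6-ChrXMSM and 7.54, 7.22 and 7.45 in MSM (-2.13, adjusted p = 4.9e-05). The strains were apart in both genes. Hormad1, a gene of the chromosome axis, fell by 1.91, and the cohesin gene Stag3 had a fold change of -2.55. Mlh3, a mismatch repair gene, was the higher one, with 0.76. Dmc1, the meiotic recombinase gene, had a fold change of 0.26 (adjusted p = 0.037), under the 1.5-fold threshold, and Prdm9 did not pass the filter.

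Stra8, the gene that retinoic acid induces before meiosis, read 2.98, 4.30 and 3.69 in B6-ChrXMSM and 5.87, 5.39 and 5.80 in MSM (-2.03, standard error 0.29, adjusted p = 0.00035). Its mean was 5.69 ± 0.26 in MSM and 5.61 ± 0.03 in B6, and Sycp3 had means of 3.40 ± 0.60 in B6-ChrXMSM, 5.10 ± 0.33 in MSM and 5.21 ± 0.10 in B6 (SD, n = 3 each). In both genes the B6 males lay within the range of the MSM males. Crabp1, which encodes a retinoic acid binding protein, read 1.497, 2.27 and 1.70 in B6-ChrXMSM and 5.53, 5.41 and 5.65 in MSM, with a fold change of -3.71 (standard error 0.18, adjusted p = 1.1e-06). Of the 16 members of the retinoic acid list tested, 3 were higher and 2, these ones, were lower. The higher ones are enzymes of retinoic acid synthesis and retinal metabolism, namely Rdh11 with 2.34, Rdh10 with 0.98 and Aldh1a2 with 0.87. Rdh11 read 5.37, 5.21 and 5.10 in B6-ChrXMSM and 2.96, 3.01 and 2.69 in MSM, and its other probe set was also higher.

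**Figure D3:**
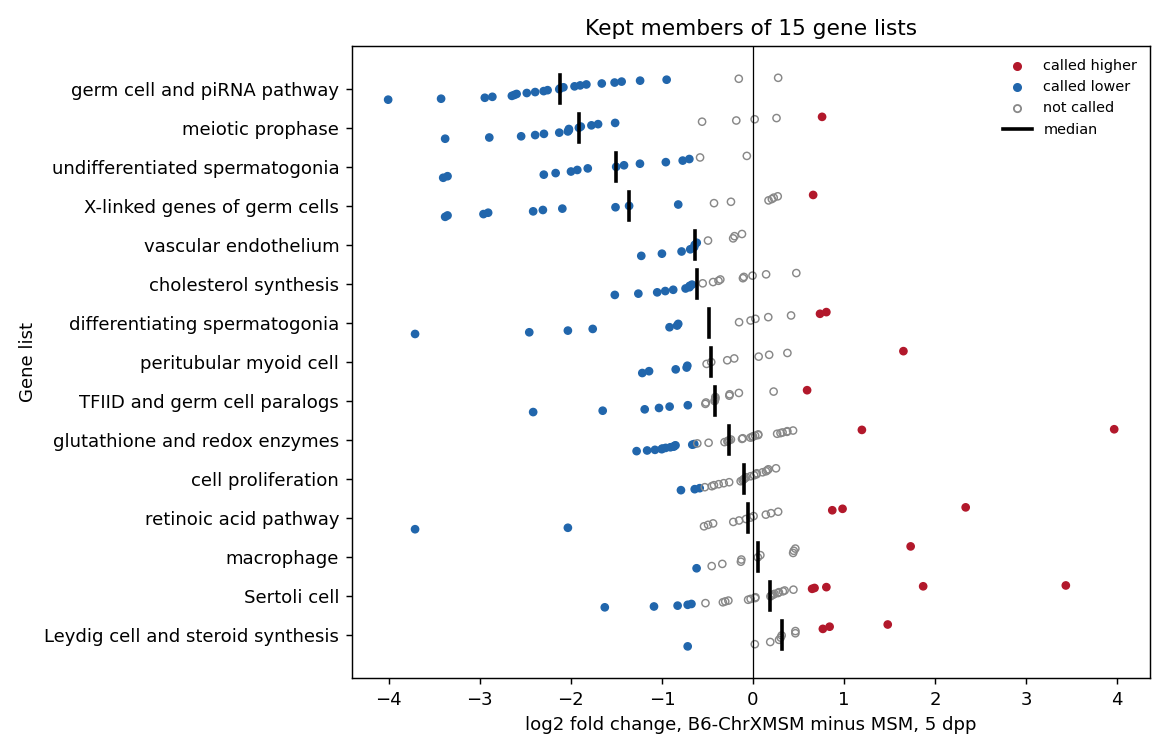
Log2 fold changes at 5 dpp of the tested members of 15 gene lists, 1 probe set per gene, with members called higher in B6-ChrXMSM in red, those called lower in blue and those not called as open circles. Black bars are list medians, which run from -2.12 for the germ cell and piRNA pathway to 0.32 for Leydig cells.

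Single males moved together in these lists. Averaged over the 30 germ cell and piRNA genes on the array, the B6-ChrXMSM males read 3.11, 3.84 and 3.50, the MSM males 5.40, 5.08 and 5.34 and the B6 males 4.40, 4.45 and 4.56. The 4 lists of germ cells, undifferentiated spermatogonia, meiosis and X-linked genes held 55 lower members, with shared ones counted once. The first B6-ChrXMSM male was the lowest of its strain in 46 of them and the second the highest in 51. The second MSM male was the lowest of its strain in 48. In the order of these lists, the counts of 22, 13, 14 and 10 lower genes were 22, 12 to 14, 14 to 15 and 10 when any array was left out. Fewer germ cells in the testis, a delay in their development and less RNA per germ cell cannot be told apart in whole-testis RNA. The paper, which set its substitution strains beside B6, could not exclude such a delay.

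Markers of Sertoli, Leydig and myoid cells were called in both directions. The shares over all genes were 20% lower and 8.53% higher, and list counts near them are no result about a list. Of 27 Sertoli cell genes tested, 5 were higher, 5 were lower and the median was 0.19. Averaged over 30 such genes on the array, the B6-ChrXMSM males lay between 7.22 and 7.27, the MSM males between 7.12 and 7.18 and the B6 males between 7.16 and 7.19. Defb19, a beta-defensin gene of Sertoli cells, read 9.49, 9.36 and 9.36 in B6-ChrXMSM and 6.02, 5.69 and 6.20 in MSM (3.44, adjusted p = 3.0e-07), and B6 averaged 9.47 ± 0.07 (SD, n = 3). Amh, which encodes the hormone of immature Sertoli cells, read 4.65, 4.39 and 4.43 in B6-ChrXMSM and 6.30, 5.86 and 6.20 in MSM (-1.63, adjusted p = 1.3e-05). The transcription factor gene Gata4 fell by 1.09, and Sox9, which directs Sertoli cell fate, had 0.35 (adjusted p = 0.0053), under the fold threshold, with another probe set higher by 1.89.

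Of 11 genes of Leydig cells and steroid synthesis, 3 were higher and 1 was lower, with a median of 0.32. Cyp11a1, the enzyme of the first step of steroid synthesis, read 6.55, 6.19 and 6.46 in B6-ChrXMSM and 4.95, 4.50 and 5.31 in MSM (1.48, adjusted p = 0.00019), with a B6 mean of 6.36. Hsd17b3, which makes testosterone, was higher by 0.84. Cyp17a1 overlapped between the strains and had 0.47 (adjusted p = 0.32). Of 13 genes of peritubular myoid cells, 5 were lower and 1 was higher. The contractile genes Tagln and Myl9 fell by 1.14 and 1.22, and the intermediate filament gene Synm was higher by 1.65.

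Endothelial markers were lower in 7 of 11 cases, with a median of -0.64. Erg, a transcription factor gene of endothelium, fell by 1.23 and Emcn, a surface sialomucin gene, by 1.00. The mean over 15 endothelial genes was 3.64 to 3.72 in B6-ChrXMSM, 4.13 to 4.44 in MSM and 3.73 to 3.95 in B6. The 7 calls were 4 with each array's median subtracted or without the second MSM male. Of 11 macrophage genes 1 was higher, Ms4a7 with 1.73, and 1 was lower. None of the 9 erythroid and 13 skeletal muscle markers on the array passed the filter, whereas the defining germ, Sertoli and Leydig cell genes Ddx4, Sox9 and Cyp11a1 passed it in both strains. Of 8 adipose genes 1 was lower, and of 3 epididymal genes 1 was higher. The mean over 13 adipose genes was 3.01, 3.58 and 3.89 in B6-ChrXMSM, 3.27, 4.37 and 3.84 in MSM and 4.68, 4.31 and 3.17 in B6. It differed more between males of a strain than between strains, and its part in the other results was not tested. Of 23 proliferation genes 3 were lower and 20 were not called, with 1 lower when array medians were subtracted, and Mcm3, a replication helicase gene, was lower by 2 probe sets and higher by another.

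Genes of cholesterol synthesis were lower in 9 of 18 cases, and none was higher (median -0.61). Mvd read 3.22, 3.74 and 3.59 in B6-ChrXMSM and 5.03, 5.01 and 5.06 in MSM (-1.52, adjusted p = 2.0e-05), and B6, at 3.83 ± 0.06 (SD, n = 3), lay near B6-ChrXMSM. The pathway's transcription factor gene Srebf2 fell by 1.26, Dhcr7 by 1.05 and Sqle by 0.96. Of 35 genes of glutathione and redox metabolism 12 were lower and 2 were higher. Gclc, the catalytic subunit of glutathione synthesis, fell by 1.28 and the reductase gene Gsr by 0.96, while Gstm2 was higher by 1.20. Txnrd1, a thioredoxin reductase gene, was higher by 3.97 by 1 probe set and lower by 1.08 by the other.

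Other groups were mixed. Of 11 interferon-induced genes 3 were higher and 1 was lower, with Ifit2 at 1.45 and Ifi35 at 1.20, and 5 were higher with array medians subtracted or without the second MSM male. Of 8 genes of antigen presentation 2 were lower, the class I genes H2-K1 (-1.32) and H2-D1 (-1.40), whose sequences vary between strains. Other probe sets of H2-K1 gave -3.34 and 1.81. Of 17 genes of TFIID and its paralogs 6 were lower and 1 was higher. Among them Taf4b, the gonadal subunit gene, fell by 1.19 and Taf7 by 1.03. Of 12 nuclear RNA export genes 4 were lower, with Nxf2 followed by Thoc5 at -1.21 and Ddx39b at -0.67. Max and E2f6, which encode factors found in a Polycomb complex, fell by 0.86 and 0.68, and 3 of that list's 15 genes were lower, the same share of 20% as over all genes. Of 21 imprinted genes 2 were lower, Mest (-1.15) and Nnat (-1.25). Of 35 ribosomal protein genes 5 were higher and 2 were lower, with Rpl14 higher by 3.49. This Rpl14 probe set had a weak signal, 4.74 in B6-ChrXMSM and 1.25 in MSM. The 38 ribosomal protein genes on the array averaged 9.45 in B6-ChrXMSM and 9.50 in MSM. On the Y chromosome, Usp9y read 2.28 ± 0.24 in B6-ChrXMSM and 3.70 ± 0.13 in MSM (SD, n = 3 each), and Uba1y was lower by both probe sets (-1.25 and -1.62), whereas Eif2s3y had 0.03 and Kdm5d -0.32, without a call.

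In several genes with the largest autosomal differences, other probe sets of the gene did not show them. Rpn1, a gene of the oligosaccharyltransferase, read 9.04, 8.96 and 8.89 in B6-ChrXMSM and 1.00, 0.74 and 1.05 in MSM by 1 probe set. Its log2 fold change was 8.04 (adjusted p = 1.1e-09). Of its 5 probe sets 3 gave fold changes between 7.58 and 8.04, and the others gave 0.00 and -0.06 at signals near 8.2 and 7.7. Gsn, which encodes the actin-severing protein gelsolin, read 8.21 ± 0.13 in B6-ChrXMSM and 0.29 ± 0.21 in MSM (SD, n = 3 each) by 1 probe set, and its other 3 lay between -0.12 and 0.46. The lysyl oxidase gene Lox read 0.45 in B6-ChrXMSM and 6.76 in MSM by 1 probe set and was higher by 1.01 by another. Pdxdc1 was lower by 5.32 by 1 probe set and higher by 1.58 and 3.07 by the others. Spdya, an activator of cyclin-dependent kinases with 1 probe set, fell by 4.77.

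Agreement between probe sets of a gene was counted. On the autosomes, 2331 of 4289 genes with at least 2 tested probe sets had a call, and in 192 of them (8.24%) probe sets were called in opposite directions, against 1 of 36 (2.78%) on the X chromosome. All probe sets were called the same way in 373 autosomal genes (16%) and 6 X-linked genes (16.7%). Fold changes of the probe sets of a gene spanned more than 4 log2 units in 23 autosomal genes and in none of the 118 X-linked ones. The part of sequence differences between B6 and MSM under the autosomal probes was not tested. A list of polymorphic probe sets was at hand for chromosomes 1 and X only, and those sets were left out of the counts above.

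**Figure D4:**
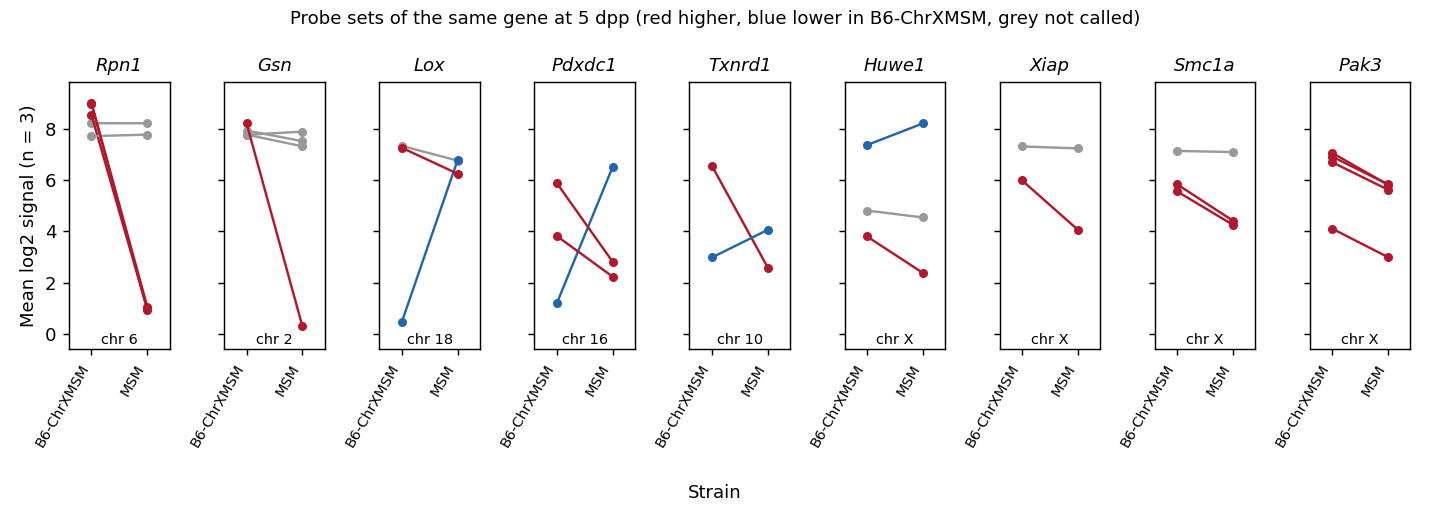
Mean log2 signal of each probe set of 9 genes in B6-ChrXMSM and MSM testes at 5 dpp (n = 3 each), with probe sets called higher in B6-ChrXMSM in red, those called lower in blue and those not called in grey. Probe sets of Rpn1, Gsn, Lox, Pdxdc1 and Txnrd1 run apart in slope, whereas the 4 of the X-linked gene Pak3 run together.

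Autosomal genes with at least 2 probe sets, all called the same way with the strains apart, numbered 130 higher and 242 lower. Cbln1, a secreted synaptic organizer, was higher by 3 probe sets. The least changed one read 6.57, 5.88 and 5.96 in B6-ChrXMSM and 2.35, 2.81 and 2.73 in MSM (3.50, adjusted p = 2.1e-06), and the others gave 4.09 and 6.03. The desmosome gene Dsp read 7.52, 7.35 and 7.37 in B6-ChrXMSM and 3.01, 5.48 and 3.29 in MSM (3.48, adjusted p = 0.00057), the second MSM male standing above the other MSM males. By their least changed probe set, the further higher genes were Zg16 with 3.12, Cap1, which binds actin, with 3.10, Zfp783 with 2.73, the complement protease gene Masp1 with 2.70, Marchf3 with 2.48, the ribonuclease gene Ang with 2.35, the guanylate-binding protein gene Gbp7 with 2.26 and Zfp825 with 2.26. In these 10 genes the B6 mean lay nearer to that of B6-ChrXMSM than to that of MSM.

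The lower autosomal genes of this kind were led by Anks1b, which read 0.79, 0.63 and 0.58 in B6-ChrXMSM and 3.46, 3.22 and 3.35 in MSM (-2.68, adjusted p = 2.4e-07). They were followed by the germ cell gene Gtsf1, Wdfy1 with -2.34, the homeobox gene Six4 with -2.22, Trim71, an RNA-binding ubiquitin ligase gene of stem cells, with -2.20, Mpped2 with -2.13, Prtg with -2.02, the germ cell gene Stk31 with -2.01, the cell death gene Bid with -2.00 and the sialyltransferase gene St8sia2 with -1.87. Some followed B6-ChrXMSM in their B6 level and others did not. Bid read 4.34 ± 0.16 in B6-ChrXMSM, 6.34 ± 0.12 in MSM and 4.39 ± 0.06 in B6, and Stk31 read 3.93 ± 0.92 in B6-ChrXMSM, 5.94 ± 0.21 in MSM and 5.68 ± 0.05 in B6 (SD, n = 3 each).

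Chromosome 1 was described with and without its polymorphic probe sets. The study crossed chromosome 1 of MSM into a strain with only the distal part of the MSM X chromosome. Testis weight, spermatocytes and expression were followed in those males, not in B6-ChrXMSM. Of 778 probe sets not listed as polymorphic, 109 were higher (14%) and 126 lower (16.2%), and of 323 listed ones 60 were higher (18.6%) and 40 lower (12.4%). On the X chromosome 9 of the 114 listed probe sets were higher (7.89%) and 12 lower (10.5%). The lower genes of largest size on chromosome 1 were Pi15, with 1.36 ± 0.50 in B6-ChrXMSM and 4.87 ± 0.29 in MSM (SD, n = 3 each), Mael with -2.94 and Wdfy1 with -2.69. The higher ones were Fam126b with 3.60, the kinase gene Map4k4 with 3.44 and Nbeal1 with 3.34. In each of these 3 the other probe sets were smaller, the lowest at -0.15, -0.62 and 0.01.

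At 7 dpp, in other males, 4125 of 17353 probe sets (23.8%) were called, 1604 higher (9.24%) and 2521 lower (14.5%) in B6-ChrXMSM. On the X chromosome 62 of 487 (12.7%) were called, 8 higher and 54 lower. Of the germ cell and piRNA list 23 of 25 tested genes were lower, with a median of -1.48, and of the meiotic list 17 of 21 were lower and 1 was higher (-1.63). The difference between the ages was tested by a strain by age term, the fold change at 7 dpp minus that at 5 dpp. It was called at the same thresholds in 1910 of 17889 probe sets (10.7%), more positive in 1002 (5.6%) and more negative in 908 (5.08%).

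Genes named for a large difference at 5 dpp are described here without a pattern being read from the sign of the term, since the 5 dpp difference that chose them is subtracted in it. Sox3 averaged 4.10 in B6-ChrXMSM and 5.96 in MSM at 7 dpp, a fold change of -1.87 against -3.35 at 5 dpp (term 1.49, standard error 0.29, adjusted p = 0.0036). Nxf2 had -1.58 against -2.96 (term 1.38, adjusted p = 0.017), and Tex19.1 had -1.60 against -3.43 (term 1.83, adjusted p = 0.0011). Tex11, with -2.43 at 7 dpp, had a term of 0.95 that missed the threshold (adjusted p = 0.059), as did Taf7l with 0.98 (adjusted p = 0.099). Rhox13 went the other way, with -2.12 at 7 dpp and -0.82 at 5 dpp (term -1.30).

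Of the 12 higher X-linked genes, chosen for their 5 dpp difference, the term was called more negative in 8. Ammecr1 averaged 5.35 in B6-ChrXMSM and 5.73 in MSM at 7 dpp, a fold change of -0.38 after 0.86 at 5 dpp (term -1.24, standard error 0.14, adjusted p = 0.00015). Hs6st2 had -0.01 at 7 dpp (term -1.09, adjusted p = 0.0012) and the Huwe1 probe set -0.04 (term -1.46, adjusted p = 0.00072). Mid1 kept a fold change of 1.89 at 7 dpp, with a term of 0.14 (adjusted p = 0.69).

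**Figure D5:**
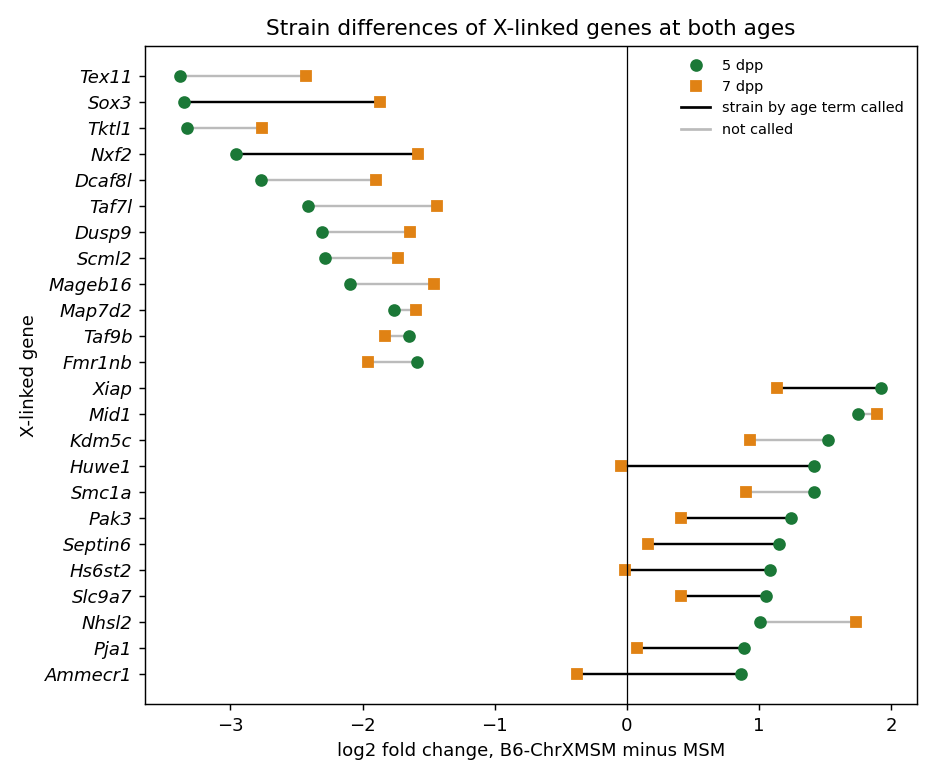
Log2 fold changes of B6-ChrXMSM over MSM for 24 X-linked genes at 5 dpp (green circles) and 7 dpp (orange squares), joined by a black line where the strain by age term was called and a grey line where it was not. The 12 lower genes stayed below 0 at both ages, and among the 12 higher ones Huwe1, Hs6st2 and Ammecr1 lay below 0 at 7 dpp.

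Over all genes, the largest positive terms were those of Golm2 (2.33), Tex19.1 and the RNA-binding protein gene Pcbp4 (1.73), and the largest negative ones those of Meioc (-2.99), Cap1 (-2.49) and Kif5b (-2.12). Meioc, which keeps germ cells in meiotic prophase, lay under the filter in both strains at 5 dpp and read 0.59 in B6-ChrXMSM and 4.41 in MSM at 7 dpp. The Golm2 value came from 1 probe set, which was called at 7 dpp only, with 5.61 in B6-ChrXMSM and 3.21 in MSM. The other probe set of Golm2 had a stronger signal at 5 dpp, 8.12 in B6-ChrXMSM and 8.54 in MSM. Its fold change there was -0.42, without a call. Cap1 averaged 6.01 in B6-ChrXMSM and 2.60 in MSM at 5 dpp, against 6.01 and 5.10 in the same strains at 7 dpp.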

How the data were processed

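Total testis RNA was hybridized to Affymetrix mouse arrays. The deposited log2 values were produced by the authors using RMA within GeneSpring GX (version not given in the sources used here), in which perfect-match probes were background-corrected, quantile-normalized and summarised to probe sets. They were used without further normalization. Of 45101 probe sets, 34958 had 1 gene in the platform annotation, 932 several and 9211 none named here, and 34744 with 1 gene on chromosomes 1 to 19, X or Y were used. The study lists 993 polymorphic probe sets on chromosome 1 and 373 on X. Of these, 653 and 236 were placed on them here and left out unless stated. All other X-linked probe sets were kept, those near the chromosome ends included, since the limits of the substitution are given in another build.

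Arrays were grouped by the strain and age of their labels. Two-sided moderated tests came from limma 3.58.1 (lmFit, eBayes; R 4.3.3). A probe set entered where either strain averaged over log2 of 10. Calls required an adjusted p (Benjamini-Hochberg, over all entered probe sets) under 0.05 and at least 1.5-fold. The strain by age term used the 4 groups of both strains. The code was tested on simulated data. Alternatives covered the filter, the threshold, array medians, the arrays fitted, the replicate block, polymorphic probe sets, the variance prior and each array left out. The p-values measure the spread between 3 males a group. List members used the probe set of highest mean. Named genes were the largest X-linked changes (12 per direction), autosomal genes with at least 2 probe sets all called the same way (10 per direction), the 3 largest single autosomal probe sets, chromosome 1 genes and age terms per direction, genes the study names and called list members, with the groups not overlapping where chosen by size. Tdrd7, Mybl1, Nr0b1, Sox9, Cyp17a1, Eif2s3y, Kdm5d and Tex13b were named after their values were seen. The members, lists and rules were chosen with earlier results of these data known. Columns of the authors' own comparisons were not used.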

Additional observations from a re-analysis of the deposited data

Results flagged for a closer look

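The strain difference itself differed between the ages in 1910 probe sets (10.7%), by the strain by age term, which is the B6-ChrXMSM minus MSM difference at 7 dpp minus that at 5 dpp. It was more positive in 1002 and more negative in 908. Ages were compared across different males, 3 in each strain and age. Most genes below were chosen by their 5 dpp difference, which the term subtracts, so the choice itself favours a term of the opposite sign.

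Among genes lower in B6-ChrXMSM at 5 dpp, the term was positive for the germ cell genes Sox3 (1.49), Nxf2 (1.38), Tex19.1 (1.83), Tex19.2 (0.91), Stag3 (1.20), Ret (0.97), Zbtb16 (1.00), Sohlh1 (0.69) and Trim71 (1.13). It was also positive for Six4 (1.15), the Lox probe set (1.24), Pcbp4 (1.73), the Sertoli cell genes Gata4 (1.68) and Amh (0.91), Ddx39b (0.65), Mcm3 (0.62), H2-K1 (0.77), H2-D1 (0.70) and Mest (0.67). Gstm2, higher in B6-ChrXMSM at 5 dpp, had 0.83, and 1 probe set of Golm2, not called at that age, had 2.33. For Gata4 the direction turned, with 5.37 in B6-ChrXMSM and 4.78 in MSM at 7 dpp.

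The term was negative for X-linked genes higher in B6-ChrXMSM at 5 dpp, namely Xiap (-0.79), Huwe1 (-1.46), Pak3 (-0.83), Septin6 (-0.99), Hs6st2 (-1.09), Slc9a7 (-0.64), Pja1 (-0.81) and Ammecr1 (-1.24). The autosomal genes with a negative term were Cbln1 (-0.98), Zg16 (-1.03), Cap1 by both probe sets (-2.42 and -2.49), Gbp7 (-0.59), Zfp825 (-0.68), Fam126b (-0.59), Kif5b (-2.12), Rdh10 (-0.845) and Cyp11a1 (-0.72). Rhox13 (-1.30) was lower at both ages, and Meioc (-2.99) was under the filter at 5 dpp. The Kif5b value came from 1 probe set, which was higher at 5 dpp (1.78), and its other 5 probe sets were not called there, at -0.52 to -0.25.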

How the results depend on the processing

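With the filter at log2 of 32, 1233 probe sets were higher and 1891 lower in B6-ChrXMSM at 5 dpp, 1214 and 1850 of them on the autosomes, and 39 were lower on the X chromosome. At a fold change of 2, 1009 were higher and 1185 lower, 994 and 1147 of them on the autosomes and 15 and 35 on the X chromosome. Fewer probe sets could pass in both cases. Without a filter 2733 were higher and 4410 lower. With each array's median subtracted, 2520 were higher and 2780 lower, so that 47.5% of the calls were higher, against 39%, and the median over all probe sets was -0.02 in place of -0.10. Leaving out 1 array gave 2065 to 2293 higher and 3210 to 3494 lower probe sets. The other alternatives run kept the counts of 5 dpp, and those over all chromosomes at 7 dpp and of the age term, within 1.5 times. The filter at log2 of 32, the fold change of 2 and the variance prior were run at 5 dpp only, and counts on the X chromosome at 7 dpp were not recomputed.

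The replicate numbers were checked as pairs. Deviations from the strain means of same-numbered males correlated at 0.19, 0.06 and 0.10, and other pairings lay between -0.16 and 0.05. Each male correlated best with the male of its own number. The labels give the number alone, and whether it marks males handled together was not tested. With the replicate block, 2130 probe sets were higher and 3336 lower, with 28 and 73 of them on the X chromosome.

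Of 137 named probe sets, none changed direction in the 1868 cases in which an alternative tested them. This was largely set in advance and is no sign of robustness. Most alternatives leave the difference of the strain means as it is. Groups that do not overlap keep their direction when 1 array is left out. Whether a probe set was called could change, and it was the same in 1866 cases. A probe set under the filter of an alternative was not compared there. With the stricter filter given above, those of Dusp9, Fmr1nb, Dcaf8l and Pja1 fell out, among others. The stricter fold change threshold was applied to counts and not to named genes. Pja1 (1.85-fold) and Ammecr1 (1.82-fold) lie under that threshold. The calls of Nhsl2 and Zfx were lost with all 18 arrays of 5 dpp in 1 fit, and both genes fell under the filter without the first B6-ChrXMSM male. The Kdm5c probe set of largest change also fell under it without that male. The endothelial list had 4 lower genes in place of 7, and the interferon list 5 higher genes in place of 3, with array medians subtracted and without the second MSM male. The proliferation list had 1 lower gene in place of 3 with array medians subtracted. The list alternatives and the one without the chromosome ends were chosen after seeing the data. Signals near the filter limit the precision of small changes.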
